A study of Mus musculus with 18 samples.

Results

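RNA levels in the deep layers of the neocortex (layers 5-6, L5-6) were compared with those in layer 4 (L4) of the same animals in 3 mice that carried an introduced Foxp2 gene. The comparison took 6 of the 18 libraries of the series, chosen by construct and layer as the labels give them: 1 mouse with mouse Foxp2 (moFoxp2 mouse 1) and 2 mice with human FOXP2 (huFOXP2 mice 1 and 2), each with 1 library of L4 and 1 of L5-6. All were CD-1 mice, an outbred stock. At E14.5 in the embryo, plasmids were brought into cells of the ventricular wall by in utero electroporation, in which electric pulses drive DNA from the fluid of the ventricle into the cells that line it. The moFoxp2 and huFOXP2 mice received Foxp2 or FOXP2 cDNA together with Gfp cDNA, and 3 GFP mice, used here only for comparison, received the plasmid without a Foxp2 gene. At postnatal day 7 each layer was cut by hand from 300 µm sagittal slices and pooled for each mouse. By the labels, GFP-positive cells lay in L4 and the cells of L5-6 were GFP-negative, so the introduced gene and the layer go together in these 3 mice. Which promoter drove the plasmid, and what share of cells took it up, is not given in the sources used here. Each library is a piece of whole tissue, and moFoxp2 is 1 mouse.

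The neocortex is built in layers that are born from the inside outward. Layer 6 neurons send axons mainly to the thalamus, layer 5 neurons to the brainstem, spinal cord and striatum, and layer 4 neurons receive the input from the thalamus. The subplate is a thin sheet of early-born neurons that lies under layer 6, against the white matter, where myelin forms from below upward in the first weeks after birth. FOXP2 is a forkhead transcription factor that is normally made by layer 6 neurons, and little of it is made in layer 4.

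The 6 libraries held 11355985 to 18146512 counts assigned to genes. Levels are given in CPM, the counts divided by the library total and a normalization factor and multiplied by 1000000, always in the order moFoxp2 mouse 1, huFOXP2 mouse 1, huFOXP2 mouse 2. A level of 3 counts, taken as the floor, corresponded to 0.165 to 0.275 CPM and covers counting error only. The share of counts from mitochondrial genes was 2.99% to 4.08% in L4 and 4.20% to 5.01% in L5-6. huFOXP2 mouse 1 stood apart from the other FOXP2 mice. Both of its libraries held counts of photoreceptor genes: Crx, a photoreceptor transcription factor chosen after its values were seen, stood at 2.44 CPM in L4 and 2.52 CPM in L5-6, against 0 in the other 4 libraries. The same mouse had the flattest contrast between layers, with an SD of 0.713 for its log2 ratios over the genes called below, against 0.886 in moFoxp2 mouse 1 and 0.908 in huFOXP2 mouse 2. The L4 library of huFOXP2 mouse 2 held more counts of some meningeal and myelin genes than the other L4 libraries, and its values are given beside the genes concerned. The labelled layers were checked against defining genes: most markers of layer 6 rose in L5-6 and Cux2 of the upper layers fell in every mouse, while Rorb of layer 4 was level in huFOXP2 mouse 1.

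Of 14838 genes tested, 3287 (22.2%) differed between L5-6 and L4 in the FOXP2 mice (edgeR quasi-likelihood test with the mouse as a block, Benjamini-Hochberg adjusted p under 0.05). Of these, 1888 genes (12.7%) were higher in L5-6 and 1399 (9.43%) were lower. The 2 directions differed more in size than in number. Among called genes that changed at least 2-fold, 434 (2.92%) were higher and 107 (0.721%) were lower. At a log2 fold change of 3 or more, 33 genes were higher and 0 were lower. The sign was the same in all 3 mice for 3251 of the 3287 genes. These were called on the same mice, so that count is no separate support. The lowest library of one layer lay above the highest library of the other for 2720 of the 3287 genes, and for 4712 (31.8%) of all genes tested. The median log2 fold change over all genes was 0.02. In tissue pieces such as these, fewer cells of a type and less RNA per cell cannot be told apart. The p-values measure the spread of the layer difference over 3 mice, since the block takes out differences in level between the mice. Without huFOXP2 mouse 2 the count was 1196, without moFoxp2 mouse 1 it was 2146, and DESeq2 called 1795.

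Most markers of layer 6 and of the subplate rose in L5-6. Of 22 such markers tested, 17 rose in L5-6 and 1 (Ntsr1) fell, where 12.7% of all genes were higher and 9.43% lower. Their median log2 fold change was 2.19 against 0.02 over all genes. The 17 include Foxp2, the introduced gene, which is described below. Cplx3 (ENSMUSG00000039714.9, mm10 chromosome 9, 57599992 to 57606281, reverse strand) encodes a complexin, a small protein that holds synaptic vesicles ready for release, and marks subplate neurons. Cplx3 had 1.56, 2.99 and 1.59 CPM in L4 and 64.5, 40.9 and 133 CPM in L5-6. Every L5-6 library was more than 10 times above every L4 library. The log2 fold change was 5.19 ± 0.31 (SE, edgeR adjusted p = 1.37e-05), which is 36.4-fold. It was 6.03 without huFOXP2 mouse 1 and 4.44 without huFOXP2 mouse 2. The start of the gene is shown because Cplx3 is a defining deep-layer gene of this contrast. The window runs from 250 bases before to 50 bases after the start (RefSeq, GRCm38.p6, chr9:57606232-57606531, reverse strand, 62.67% G and C), 5′ to 3′. In this and the later windows capitals mark matches to 3 short motifs named below, and this window holds none:
Cplx3: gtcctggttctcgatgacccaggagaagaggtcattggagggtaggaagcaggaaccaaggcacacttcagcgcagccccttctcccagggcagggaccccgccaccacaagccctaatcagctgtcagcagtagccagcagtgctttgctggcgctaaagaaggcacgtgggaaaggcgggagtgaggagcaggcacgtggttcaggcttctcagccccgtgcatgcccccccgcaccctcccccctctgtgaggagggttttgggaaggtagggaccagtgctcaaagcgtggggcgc

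Nxph3 encodes a secreted neurexophilin that binds neurexins. It had the largest fitted fold change among called genes of one sign in all 3 mice and a mean of at least 1 CPM. Its levels were 2.94, 1.46 and 1.31 CPM in L4 and 69.7, 44.9 and 97.9 CPM in L5-6, a log2 fold change of 5.26 ± 0.21 (edgeR adjusted p = 2.88e-06). The layers were far apart in each mouse, and the 2 huFOXP2 mice had the lowest L4 levels. Its relative Nxph4 stood at 1.41 ± 0.180 CPM in L4 and 17.9 ± 8.12 CPM in L5-6 (mean ± SD, n = 3; chosen after its values were seen). Trh, the precursor of thyrotropin-releasing hormone, rose from 0.551, 0.209 and 0.346 CPM to 11.9, 6.39 and 15.3 CPM (4.96 ± 0.25, adjusted p = 5.39e-06). The L4 values of Trh were close to the floor. Syt6, a synaptotagmin of corticothalamic neurons, went from 6.15, 4.18 and 5.33 CPM to 65.3, 56.9 and 104 CPM, with 3.87 ± 0.14 and the smallest spread of these genes.

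Transcriptional regulators of these neurons had smaller log2 fold changes. Nr4a2, an orphan nuclear receptor of the subplate and claustrum, was 7.43, 2.30 and 1.80 CPM in L4 and 40.7, 48.8 and 33.2 CPM in L5-6 (3.54 ± 0.28, edgeR adjusted p = 4.93e-05), and the change was 4.31 without moFoxp2 mouse 1. Tle4, a co-repressor of layer 6 corticothalamic neurons, went from 22.2, 27.3 and 21.9 CPM to 117, 91.5 and 150.2 CPM (2.32 ± 0.16). In all of Cplx3, Nxph3, Trh and Tle4 the L5-6 library of huFOXP2 mouse 1 was the lowest of the 3, and for Nr4a2 it was the highest. Ntsr1, the neurotensin receptor whose Cre line is used to reach layer 6, went the other way, with 67.2 ± 9.21 CPM in L4 and 46.2 ± 6.12 CPM in L5-6 (-0.52 ± 0.11, adjusted p = 0.00841, chosen after its values were seen). The 4 markers that did not pass were Lmo3, Moxd1, Ddit4l and Col12a1. Without huFOXP2 mouse 1 the count was 19 higher and 1 lower, and without huFOXP2 mouse 2 it was 16 and 1.

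**Figure D1:**
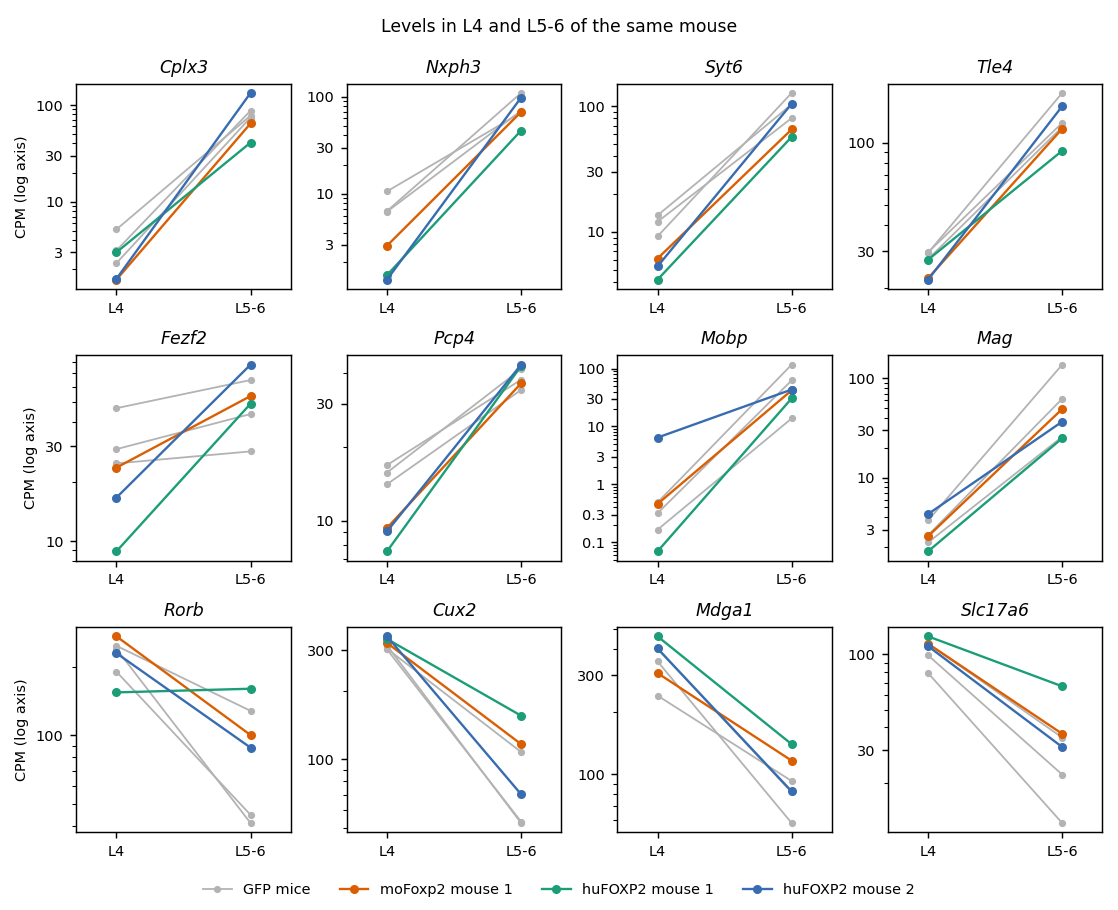
Levels of 12 genes in L4 and L5-6 of each mouse, in CPM on a log axis that differs between panels. Each line joins the 2 libraries of 1 mouse, coloured for the 3 FOXP2 mice and grey for the 3 GFP mice. Cplx3, Nxph3, Syt6 and Tle4 climb in every mouse, Mobp starts at 6.44 CPM in L4 of huFOXP2 mouse 2, and the line of Rorb is flat in huFOXP2 mouse 1.

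Most markers of layer 5 neurons also rose. Of 18 tested, 14 were higher and 1 (Parm1, -0.62, chosen after its value was seen) was lower in L5-6, with a median of 1.11. Over all genes 12.7% were higher and 9.43% lower. Without huFOXP2 mouse 2 the count of layer 5 markers was 11 and 0. Tmem163, a zinc-binding membrane protein of synaptic vesicles that is also on the layer 6 list, went from 7.71, 8.35 and 7.20 CPM to 42.3, 35.8 and 43.4 CPM (2.39 ± 0.11, edgeR adjusted p = 5.39e-06). Pcp4, a calmodulin-binding protein of subcerebral projection neurons, had 9.36, 7.52 and 9.06 CPM in L4 and 36.3, 42.6 and 43.2 CPM in L5-6 (2.26 ± 0.11, adjusted p = 5.39e-06). For both genes the L5-6 libraries lay within a narrow band far above the L4 libraries. Fezf2, the transcription factor that specifies subcerebral neurons, had 23.5, 8.91 and 16.6 CPM in L4 and 53.8, 49.2 and 77.4 CPM in L5-6 (1.95 ± 0.19, adjusted p = 0.000149). Ldb2 (1.74), Rbp4 (2.50) and Etv1 (1.03), other genes of layer 5, rose as well. The thick axons of layer 5 neurons are rich in neurofilaments. Of the 5 genes of the neurofilament and internexin list 3 rose, where 12.7% of all genes were higher. The median was 1.19, and in GFP mice 2 rose, with a median of 0.18. The part of layer 5 axons in this rise was not tested. Nefm went from 154, 99.9 and 118 CPM to 431, 497 and 522 CPM, a log2 fold change of 2.00 ± 0.13 (adjusted p = 1.89e-05), while Nefl (1.40) and Nefh (1.19) rose by less. Ina and Prph did not pass (0.20 and 0.41).

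Most myelin genes rose, with a median near that of the layer 6 markers. Of 22 myelin and maturing-oligodendrocyte genes tested, 18 rose and 0 fell, where 12.7% of all genes were higher and 9.43% lower. Their median was 2.34, and without moFoxp2 mouse 1 the count was 18 and 1. Mobp (ENSMUSG00000032517.16, chromosome 9, 120149707 to 120181484, forward strand) encodes a basic protein of the myelin sheath that appears late in oligodendrocyte maturation. Mobp had 0.459, 0.0696 and 6.44 CPM in L4 and 42.1, 30.5 and 43.5 CPM in L5-6. The 3 L5-6 libraries were alike, while L4 ranged from under the floor of 0.209 CPM in huFOXP2 mouse 1 to 6.44 CPM in huFOXP2 mouse 2. The log2 fold change was 4.12 ± 0.49 (edgeR adjusted p = 0.00044). It was 7.19 without huFOXP2 mouse 2, 3.56 without huFOXP2 mouse 1 and 5.41 with DESeq2. The 300 bases around the start of Mobp (RefSeq, GRCm38.p6, chr9:120149492-120149791, forward strand, 43.33% G and C) are shown because they hold more repeats of 1 motif than any other window of the table. The capitals mark CTTTGT, the reverse complement of ACAAAG, a core motif of Sox factors such as Sox10, the regulator of myelin genes:
Mobp: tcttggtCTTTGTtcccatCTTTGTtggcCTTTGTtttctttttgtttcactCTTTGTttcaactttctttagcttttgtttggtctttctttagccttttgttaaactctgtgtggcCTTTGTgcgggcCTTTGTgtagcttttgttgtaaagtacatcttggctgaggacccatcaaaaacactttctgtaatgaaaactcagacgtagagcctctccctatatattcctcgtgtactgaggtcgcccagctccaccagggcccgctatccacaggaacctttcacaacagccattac
The motif ACAAAG was found 6 times in the Mobp window on the reverse strand, at positions -243, -231, -221, -198, -132 and -120 counted from the start. Among 32851 windows of the same length in the table, 6147 (18.71%) held ACAAAG at least 1 time on either strand. Mobp was the only window with 6 matches (0.003044%). A match of letters is a description of the sequence and no measurement of binding.

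Other genes of the sheath moved with Mobp. Mag, an adhesion protein between axon and sheath, rose from 2.57, 1.81 and 4.29 CPM to 48.8, 24.8 and 36.5 CPM (3.64 ± 0.18, edgeR adjusted p = 5.39e-06). It had its highest L4 level in huFOXP2 mouse 2 and its lowest L5-6 level in huFOXP2 mouse 1. The layers did not overlap for Mag, nor for 31.8% of all genes. Cldn11, the tight-junction protein of myelin, was also highest in L4 of huFOXP2 mouse 2, with 0.642, 0.975 and 4.36 CPM, and had 36.97, 21.8 and 30.8 CPM in L5-6 (3.87 ± 0.34, adjusted p = 8.02e-05). Without that mouse its change was 5.09. Enpp6, a phosphodiesterase of newly forming oligodendrocytes, had 2.48, 2.85 and 1.73 CPM in L4 and 46.6, 18.6 and 33.5 CPM in L5-6 (3.74 ± 0.24). For Enpp6 huFOXP2 mouse 2 had the lowest L4 level. Myrf, the transcription factor that switches on myelin genes, rose by 3.04 ± 0.19 (adjusted p = 1.69e-05). The 4 genes that did not pass were Mal (0.31), Aspa (0.54), Enpp2 and Trf, and Opalin and Nkx6-2 were too low to be tested.

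Of 12 genes of oligodendrocyte precursors 9 rose and 0 fell, where 12.7% of all genes were higher and 9.43% lower. Their median was 0.59. Without huFOXP2 mouse 1 the count was 10 and 1, and it was 7 and 0 without huFOXP2 mouse 2 or with no block. Pdgfra, the growth factor receptor of precursors, had 135, 171 and 140 CPM in L4 and 236, 231 and 221 CPM in L5-6 (0.64 ± 0.08, edgeR adjusted p = 0.000508). Sox10, present through the whole lineage, went from 18.4, 22.2 and 18.3 CPM to 66.1, 46.1 and 51.4 CPM (1.47 ± 0.13). Neu4, a sialidase of the lineage, rose by 1.59 ± 0.21.

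**Figure D2:**
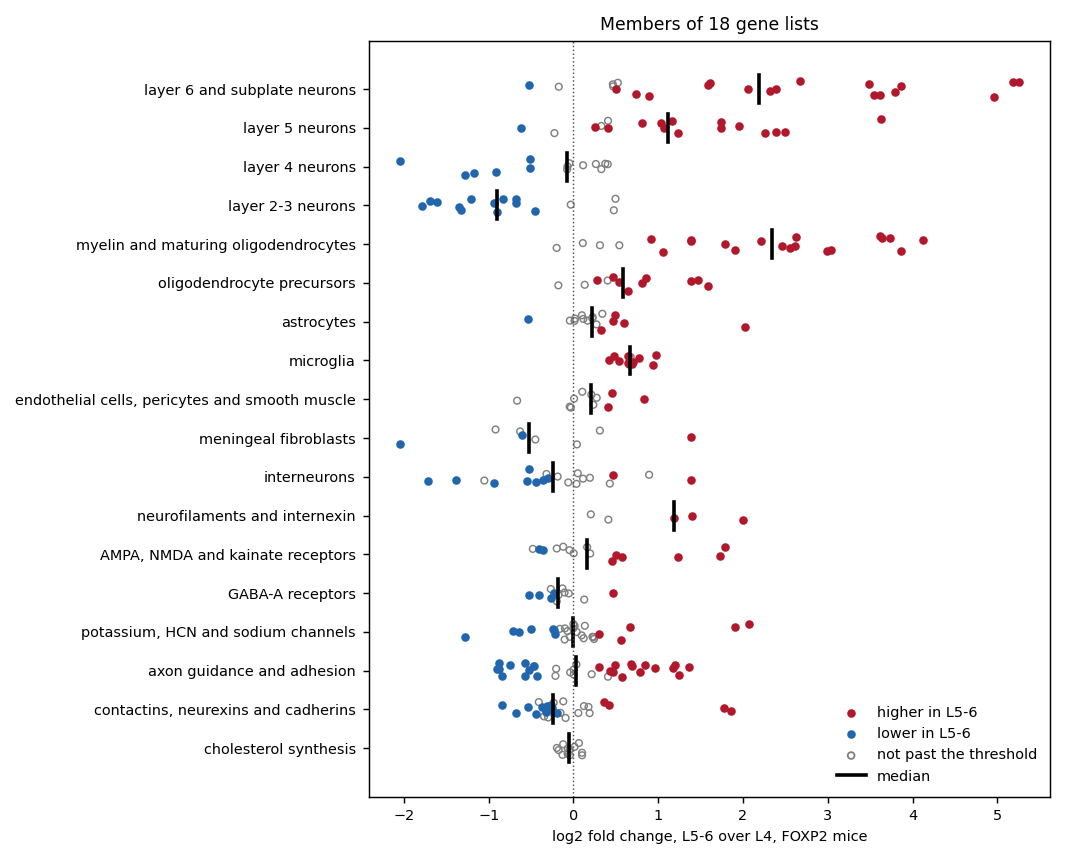
Log2 fold change (L5-6 over L4, FOXP2 mice) of each tested member of 18 gene lists. Each point is 1 gene, red where it passed higher in L5-6, blue where it passed lower and open where it did not pass, and the black bar is the median of the list. The layer 6 and myelin lists reach furthest to the right (medians 2.19 and 2.34), and the layer 2-3 list lies to the left (median -0.91).

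Of 14 markers of layer 4 neurons tested, 6 were lower and 0 were higher in L5-6, with a median of -0.07, where 9.43% of all genes were lower and 12.7% higher. The 6 were Rorb, Kcnh5, Plcxd2, Thsd7a, Zmat4 and Dcn. Dcn, described below, also marks meningeal fibroblasts, and it did not pass without huFOXP2 mouse 2. Rorb (chromosome 19, 18930605 to 19111196), the orphan nuclear receptor that defines layer 4, had 272, 154 and 230 CPM in L4 and 100.4, 160.3 and 88.4 CPM in L5-6. It fell sharply in moFoxp2 mouse 1 and huFOXP2 mouse 2 and was level in huFOXP2 mouse 1, so that the layers overlapped. The fitted change was -0.91 ± 0.23 (edgeR adjusted p = 0.0215). The call of Rorb was lost with DESeq2 (-0.93, adjusted p = 0.208), without huFOXP2 mouse 2 (-0.67, adjusted p = 0.151) and in a fit of all 18 libraries (-0.91, adjusted p = 0.0863). Kcnh5, a voltage-gated potassium channel, fell from 58.0, 53.8 and 64.1 CPM to 19.4, 37.4 and 17.9 CPM (-1.28 ± 0.20), and Thsd7a, a thrombospondin-domain protein, from 145, 123 and 122 CPM to 60.3, 80.3 and 37.5 CPM (-1.17 ± 0.16). In both genes the L5-6 library of huFOXP2 mouse 1 was the highest. The median log2 ratio of the 14 markers was -0.60 in moFoxp2 mouse 1, 0.18 in huFOXP2 mouse 1 and -0.32 in huFOXP2 mouse 2. Whether the L5-6 piece of huFOXP2 mouse 1 held tissue of layer 4 was not tested. Without huFOXP2 mouse 1 the count was again 6 lower, without huFOXP2 mouse 2 it was 2 lower, and without moFoxp2 mouse 1 it was 2 higher and 4 lower. DESeq2 called 3 lower, and the fit with no block 3.

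Most genes of layer 2-3 neurons were lower in L5-6. Of 15 tested, 12 fell and 0 rose, with a median of -0.91, where 9.43% of all genes were lower and 12.7% higher. The 16 genes of the list summed to 2516, 2563 and 2548 CPM in L4. In the L2-3 libraries of the same mice they summed to 1807, 1902 and 2007 CPM, so the list does not single out layers 2-3 against L4 here. With any 1 mouse left out 12 again fell, and without huFOXP2 mouse 1 the count of genes that rose was 2. Mdga1, a cell-surface protein of upper-layer neurons, had 307, 461 and 403 CPM in L4 and 116, 139 and 82.5 CPM in L5-6 (-1.79 ± 0.14, edgeR adjusted p = 4.11e-05). Inhba, which encodes the beta A subunit of activin, fell from 41.4, 33.97 and 35.1 CPM to 12.6, 12.9 and 8.62 CPM (-1.70 ± 0.12, adjusted p = 2.53e-05). Neither gene overlapped between the layers, where 31.8% of all genes did not. The window at the start of Inhba (chr13:16011601-16011900, forward strand, 47.67% G and C) is shown as that of a gene that fell in every mouse. It holds 1 match to ACAAAG, on the reverse strand at -228:
Inhba: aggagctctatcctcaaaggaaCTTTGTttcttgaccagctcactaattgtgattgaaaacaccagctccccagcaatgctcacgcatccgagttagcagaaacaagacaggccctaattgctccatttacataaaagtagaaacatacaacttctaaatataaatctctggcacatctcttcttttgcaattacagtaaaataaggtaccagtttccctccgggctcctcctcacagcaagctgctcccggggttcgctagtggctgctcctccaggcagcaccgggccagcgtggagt
Cux2, a homeobox factor of layers 2 to 4 (chosen after its values were seen), had 324, 337 and 346 CPM in L4 and 117, 155 and 70.3 CPM in L5-6 (-1.61 ± 0.17, adjusted p = 0.000265). Its L4 levels were nearly equal, and the spread lay in L5-6.

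**Figure D3:**
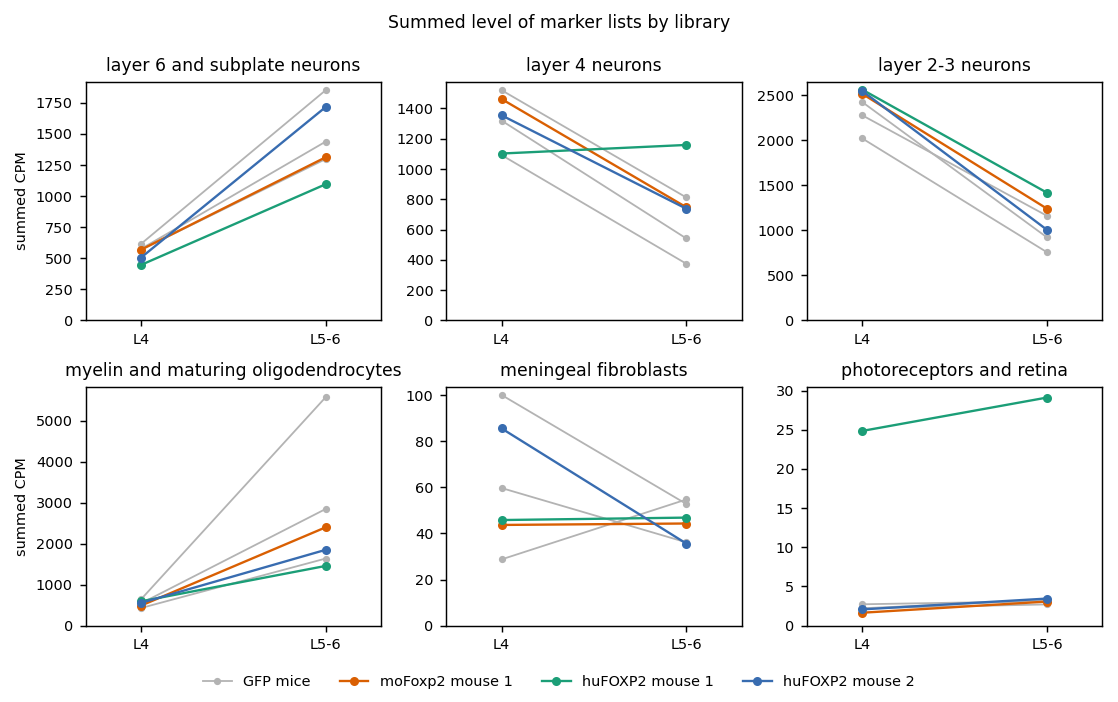
Summed level in CPM of 6 marker lists in L4 and L5-6 of each mouse, coloured for the FOXP2 mice and grey for the GFP mice. The layer 4 list goes from 1102 to 1159 CPM in huFOXP2 mouse 1 while it falls in the other 5 mice, and the photoreceptor list stands at 24.9 and 29.1 CPM in that mouse and at 3.5 CPM or less in the other FOXP2 mice.

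Of 32 transcription factors of projection neurons, 15 were higher in L5-6, 11 were lower and 6 did not pass. Over all genes tested 12.7% were higher and 9.43% lower. Foxp2, the introduced gene, is 1 of the 15. The steepest on the higher side were Nr4a2, Tle4 and Fezf2, described above, and on the lower side Cux2, Pou3f1 and Pou3f2. Nfia, a nuclear factor I protein that also drives glial genes, rose from 33.5, 35.8 and 32.3 CPM to 109.995, 85.6 and 120.3 CPM (1.64 ± 0.11, edgeR adjusted p = 2.1e-05). Pou3f1, a POU factor, fell from 195, 227 and 224 CPM to 67.9, 93.2 and 68.8 CPM (-1.49 ± 0.08, adjusted p = 9.03e-06), and its relative Pou3f2 fell by 1.35 on the log2 scale. Mef2c, an activity-regulated factor, fell from 2868, 2636 and 2928 CPM to 1429, 1572 and 1473 CPM (-0.90 ± 0.08). None of these 4 factors overlapped between the layers, which was also so for 2720 of the 3287 called genes and 31.8% of all genes.

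Foxp2 itself (ENSMUSG00000029563.16, chromosome 6, 14901349 to 15441977, forward strand) had 34.8, 33.3 and 64.9 CPM in L4 and 69.4, 39.7 and 77.7 CPM in L5-6 of the FOXP2 mice. Each mouse was higher in L5-6, but the layers overlapped, since L4 of huFOXP2 mouse 2 lay above L5-6 of huFOXP2 mouse 1. The log2 fold change was 0.51 ± 0.13 (edgeR adjusted p = 0.0231). It did not pass without moFoxp2 mouse 1 (0.25, adjusted p = 0.0930), without the block on the mouse (0.50, adjusted p = 0.321) or in a fit of all 18 libraries (0.52, adjusted p = 0.134). In GFP mice Foxp2 stood at 6.69 ± 1.79 CPM in L4 and 60.7 ± 8.06 CPM in L5-6 (SD, n = 3), with no overlap and a log2 fold change of 3.20. The change from L4 to L5-6 was thus 2.70 ± 0.21 smaller on the log2 scale in FOXP2 than in GFP mice (interaction in edgeR, adjusted p = 0.000796). The counts do not tell reads of the introduced cDNA from reads of the mouse's own gene, and how reads of the human cDNA were assigned was not tested. The paralogs Foxp1 and Foxp4, chosen after their values were seen, did not pass: Foxp1 had 194 ± 50.1 CPM in L4 and 195 ± 19.1 CPM in L5-6, and Foxp4 54.6 ± 0.326 CPM and 54.4 ± 4.79 CPM.

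**Figure D4:**
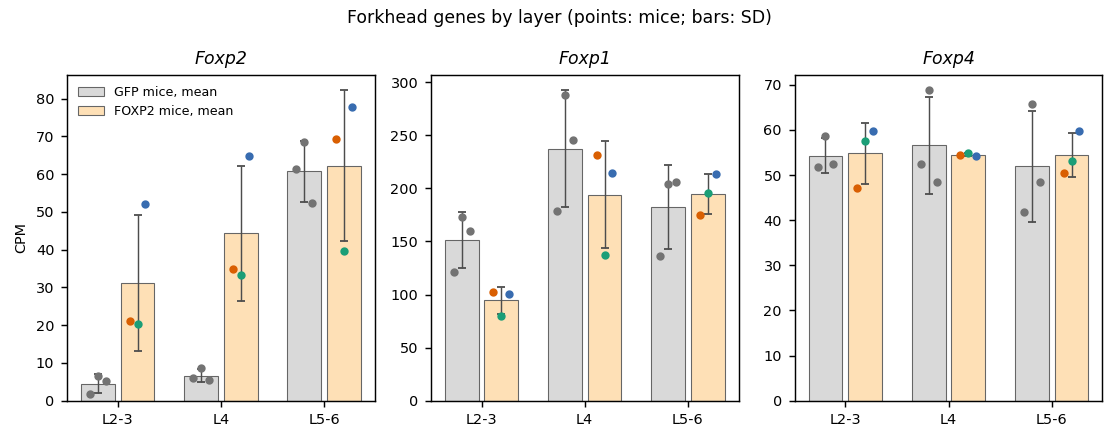
Levels of Foxp2, Foxp1 and Foxp4 in CPM by layer, with the mean of 3 mice as a bar, the SD as an error bar and each mouse as a point (grey for GFP mice, orange for moFoxp2 mouse 1, green for huFOXP2 mouse 1, blue for huFOXP2 mouse 2). Foxp2 steps up from 6.69 CPM in L4 to 60.7 CPM in L5-6 of GFP mice and only from 44.3 to 62.3 CPM in FOXP2 mice.

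Genes reported as FOXP2 targets in other work moved in both directions. Of 11 tested, 2 rose (Slit1 and Plaur) and 5 fell, where 12.7% of all genes were higher and 9.43% lower. Their median was -0.20. Vldlr, the reelin receptor, fell from 196, 195 and 179.8 CPM to 131, 141 and 119 CPM (-0.54 ± 0.06, edgeR adjusted p = 0.00035). Cntnap2, a neurexin-like adhesion protein, had 167 ± 3.34 CPM in L4 and 134 ± 10.01 CPM in L5-6 (-0.31 ± 0.06, adjusted p = 0.00849, chosen after its values were seen). Without huFOXP2 mouse 2 the count was 1 higher and 4 lower. In GFP mice the same list had 2 genes higher and 4 lower, with a median of -0.27.

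Vesicular glutamate transporters moved in opposite directions. Slc17a7, which encodes the vesicular glutamate transporter VGLUT1 of mature cortical neurons, went from 543, 625 and 659 CPM in L4 to 719, 928 and 999 CPM in L5-6 (0.54 ± 0.07, edgeR adjusted p = 0.00053). Slc17a6, which encodes VGLUT2, went from 114, 125 and 111 CPM to 36.97, 67.0 and 31.3 CPM (-1.42 ± 0.14, adjusted p = 0.00018). The 2 layers did not overlap for either gene, nor for 31.8% of all genes, and huFOXP2 mouse 1 kept the most Slc17a6 in L5-6. The zinc transporter Slc30a3 (-0.62) and the GABA transporter Slc32a1 (-0.44) of synaptic vesicles fell, and Slc17a8, which encodes another glutamate transporter, rose (0.96 ± 0.21, adjusted p = 0.00991). Its call was lost with DESeq2 (adjusted p = 0.0920), without huFOXP2 mouse 2 (adjusted p = 0.101) and with no block (adjusted p = 0.0673). Among 15 glutamate receptor subunits 6 rose and 2 fell, where 12.7% of all genes were higher and 9.43% lower. Grik3, a kainate receptor subunit, went from 73.0, 53.6 and 56.2 CPM to 197, 171 and 232 CPM (1.73 ± 0.10, adjusted p = 1.28e-05), and Grik4 and Grin2c rose by 1.23 and 1.79. Among 12 GABA-A receptor subunits Gabra3 rose (0.47) and 4 fell by at most 0.53 on the log2 scale, Gabra4 having the largest fall of these. The count of GABA-A subunits without huFOXP2 mouse 2 was 1 higher and 0 lower (Gabra4 -0.39, adjusted p = 0.107), and 1 and 2 without moFoxp2 mouse 1. Of glutamate receptor subunits 4 rose and 1 fell without huFOXP2 mouse 2.

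Of 26 receptors for serotonin, noradrenaline, dopamine and acetylcholine tested, 11 rose and 4 fell, where 12.7% of all genes were higher and 9.43% lower. Htr2a, a serotonin receptor of layer 5 neurons, went from 13.4, 12.7 and 10.4 CPM to 21.0, 28.0 and 23.7 CPM (1.01 ± 0.12, edgeR adjusted p = 0.000435), while Htr7 fell from 26.2, 34.5 and 43.2 CPM to 13.8, 14.8 and 19.5 CPM (-1.09 ± 0.09) and Chrm1, a muscarinic receptor, by 0.73 on the log2 scale. Without huFOXP2 mouse 2 the count of receptors was 3 higher and 2 lower, and both DESeq2 and the fit with no block gave 6 and 2. Of 27 potassium, HCN and sodium channels 5 rose and 7 fell, against the same shares over all genes. Kcna1, an axonal potassium channel, rose from 3.03, 3.20 and 5.33 CPM to 11.9, 12.9 and 23.5 CPM (2.07 ± 0.13, adjusted p = 1.69e-05), and Kcnd2, a channel of the dendritic A-current, fell from 147, 146 and 150.4 CPM to 92.2, 97.6 and 92.2 CPM (-0.64 ± 0.06). The count of channels was 3 higher and 4 lower without huFOXP2 mouse 2, without moFoxp2 mouse 1 and with no block.

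Of 33 guidance genes 14 rose and 10 fell, where 12.7% of all genes were higher and 9.43% lower. The median was 0.03, and without huFOXP2 mouse 2 the count was 9 and 8. Within the semaphorins, Sema3e rose from 13.9, 11.7 and 12.04 CPM to 28.5, 25.2 and 34.6 CPM (1.25 ± 0.11, edgeR adjusted p = 9.87e-05), and Sema3a fell from 56.1, 56.9 and 52.5 CPM to 28.7, 34.1 and 26.3 CPM (-0.88 ± 0.08, adjusted p = 9.01e-05). Neither overlapped between the layers, where 31.8% of all genes did not. Of 26 contactins, neurexins and cadherins 4 rose and 11 fell, against the same shares over all genes. The 2 steepest cadherins were Cdh18, with 7.62, 5.92 and 8.17 CPM in L4 and 24.6, 19.3 and 34.3 CPM in L5-6 (1.85 ± 0.12), and Cdh9 (1.78 ± 0.16), while Cdh6 went from 221, 182 and 213 CPM to 105, 129 and 106 CPM (-0.84 ± 0.10). The count of this list was 2 higher and 2 lower without huFOXP2 mouse 2, 5 and 5 without moFoxp2 mouse 1, and 3 and 3 with no block.

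Of 20 interneuron genes tested 2 rose and 8 fell, where 12.7% of all genes were higher and 9.43% lower. Their median was -0.25. Sst, the peptide somatostatin of one interneuron class, rose from 34.3, 35.7 and 39.4 CPM to 89.0, 82.6 and 114 CPM (1.39 ± 0.08, edgeR adjusted p = 1.2e-05), and Npy rose by 0.46. Vip, the peptide of another class, fell from 29.9, 34.8 and 33.1 CPM to 13.4, 16.0 and 8.51 CPM (-1.39 ± 0.15, adjusted p = 0.000274). The peptides Tac2 (7.80, 11.3 and 12.7 CPM in L4, 2.59, 1.70 and 2.25 CPM in L5-6, -2.27 ± 0.22) and Crh (-1.72 ± 0.20) fell as well. Sst and Vip did not overlap between the layers, as 31.8% of all genes did not, and changed in opposite directions. The count of this list was 1 higher and 5 lower without huFOXP2 mouse 2, 1 and 7 without moFoxp2 mouse 1, and 1 and 4 with no block.

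Counts for other cells of the tissue stand against 12.7% of all genes higher and 9.43% lower. Microglial genes rose as a group: 11 of 12 passed higher and 0 lower, with a median of 0.66. Cx3cr1, the fractalkine receptor of microglia, had 31.7, 64.3 and 37.1 CPM in L4 and 69.7, 94.0 and 58.1 CPM in L5-6 (0.77 ± 0.11, edgeR adjusted p = 0.00101). The layers overlapped, since L4 of huFOXP2 mouse 1 lay above L5-6 of huFOXP2 mouse 2, and without the block on the mouse 4 of the 12 genes passed. Of 16 astrocyte genes 5 rose and 1 fell. Gfap, the filament of fibrous and reactive astrocytes, rose from 43.7, 61.4 and 60.3 CPM to 222, 109.6 and 418 CPM (2.02 ± 0.29, adjusted p = 0.00134), with L5-6 of huFOXP2 mouse 2 far above that of huFOXP2 mouse 1, while Slc1a2, the main glutamate uptake carrier, rose by 0.32 (adjusted p = 0.109 without huFOXP2 mouse 2). Gfap rose by 2.61 without huFOXP2 mouse 1. The count of astrocyte genes was 10 higher and 1 lower without huFOXP2 mouse 1, 3 and 1 without either of the other mice or with DESeq2, and 2 and 0 with no block. Of 11 genes of blood vessels 3 rose and 0 fell (3 and 1 without huFOXP2 mouse 1), and of 4 red blood cell genes and 12 genes of cholesterol synthesis 0 passed in either direction, while without huFOXP2 mouse 1 the count of red blood cell genes was 2 higher.

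Several other genes rose steeply, and of those described here Ctgf alone stands on a layer list. Col24a1, a fibrillar collagen, rose from 0.184, 0.278 and 0.0692 CPM, which is at or under the floor in 2 mice, to 9.01, 3.20 and 6.75 CPM (5.04 ± 0.39, edgeR adjusted p = 4.53e-05), and the change was 5.95 without huFOXP2 mouse 1. Spp1, the secreted phosphoprotein osteopontin, had 0.826, 1.11 and 2.35 CPM in L4 and 50.2, 2.18 and 104 CPM in L5-6. The 2 layers overlapped for Spp1, because huFOXP2 mouse 1 stayed under the L4 level of huFOXP2 mouse 2, and the fitted change was 5.03 ± 0.46, or 4.25 without huFOXP2 mouse 2. The secreted protein Ctgf, a subplate marker, had 1.56, 1.95 and 4.91 CPM in L4 and 39.6, 17.8 and 61.8 CPM in L5-6 (3.79 ± 0.19). Pappa2 (3.92), a protease of insulin-like growth factor binding proteins, Npbwr1 (3.74), a neuropeptide receptor, Podn (3.65), a small proteoglycan, and the noncoding gene 9630013A20Rik (4.21) completed the rising side. 9630013A20Rik lies opposite to Pcdh17, and whether the counting used strand is not given in the sources used here.

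Among the steepest falling genes were Tac2, Mdga1, Crh and Inhba, described above, and others with few counts. 6530403H02Rik went from 2.29, 3.69 and 3.25 CPM to 0.978, 0.204 and 0.604 CPM (-2.36 ± 0.41, edgeR adjusted p = 0.0035), and the change was -3.02 without moFoxp2 mouse 1. The acetylcholine vesicle transporter Slc18a3, which shares its locus with Chat, had 1.10, 2.44 and 1.73 CPM in L4 and 0.210, 0.816 and 0.165 CPM in L5-6 (-2.18 ± 0.39, and -2.90 without huFOXP2 mouse 1). Grpr (-1.91), the receptor of gastrin-releasing peptide, Dmgdh (-1.83), Nr0b1 (-1.82), Gm1715 (-1.81), Ostn (-1.73), A430048G15Rik (-1.73) and Aqp5 (-1.69) were among the others, and Gm1715 did not pass without huFOXP2 mouse 2 (adjusted p = 0.0513). Ptgds, a prostaglandin synthase abundant in meninges, had 3.12, 2.99 and 35.4 CPM in L4 and 1.89, 2.65 and 1.87 CPM in L5-6, so that 1 library set its fall of 2.28 ± 0.63 on the log2 scale. Dcn, the proteoglycan decorin, which marks meningeal fibroblasts and also stands on the layer 4 list, showed the same pattern with 1.93, 1.95 and 7.61 CPM in L4. Neither passed without huFOXP2 mouse 2 (-0.41, adjusted p = 0.434 for Ptgds, and -0.96, adjusted p = 0.215 for Dcn), and without huFOXP2 mouse 1 they were -3.25 and -3.05. The 11 genes of the meningeal list summed to 43.7, 45.8 and 85.5 CPM in L4 and to 44.3, 46.9 and 35.6 CPM in L5-6. Of the 8 tested 1 rose (Lum) and 2 fell (Dcn and Col1a2), where 12.7% of all genes were higher and 9.43% lower. The count was 1 and 0 without huFOXP2 mouse 2, 1 and 4 without moFoxp2 mouse 1, and 1 and 3 without huFOXP2 mouse 1. Their part in these falls was not tested.

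The same contrast in the 3 GFP mice, which share no library with the FOXP2 mice, was fitted in the same way. Of 15193 genes tested there 3646 (24.0%) passed, 2147 (14.1%) higher and 1499 (9.87%) lower in L5-6. Over 14711 genes tested in both, the log2 fold changes correlated with Pearson's r = 0.817 and Spearman's rho = 0.763 across genes, which are not independent replicates. Both contrasts called 2159 genes, which is 65.7% of the FOXP2 calls and 59.2% of the GFP calls, and 2158 of them had the same direction. Layer 6 markers had 17 genes higher and 0 lower in GFP mice, with a median of 1.91, and myelin genes 18 and 0, with 2.77. Layer 4 markers had 1 higher and 9 lower in GFP mice, with a median of -0.88, against 0 and 6 and -0.07 in FOXP2 mice. The median log2 ratios by mouse were -0.93, -0.83 and -0.58 in GFP mice 1 to 3. They were -0.60, 0.18 and -0.32 in the FOXP2 mice, and moFoxp2 mouse 1 lay within the GFP range. Without huFOXP2 mouse 1 the fitted median in FOXP2 mice was -0.24. The difference of this list between the groups has no test of its own.

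The difference of the 2 contrasts was tested gene by gene over the 12 libraries. Of 15502 genes 1 passed (0.00645%), Foxp2, and 1070 had an unadjusted p under 0.05 (edgeR), while DESeq2 called 17 and the fit with no block 0. Mobp differed by -3.42 ± 1.08 and Cplx3 by 0.57 ± 0.52, and neither passed (edgeR adjusted p = 0.702 and 0.796). The Mobp difference was -0.39 without huFOXP2 mouse 2 and -1.50 with DESeq2, and it passed with no filter on low counts (-3.42, adjusted p = 6.62e-18). The Cplx3 difference changed its sign when huFOXP2 mouse 2 was left out (-0.15), and it was 1.40 when huFOXP2 mouse 1 and 0.27 when GFP mouse 1 was left out. The genes of smallest p after Foxp2 did not pass either. On the side steeper in FOXP2 mice they were Kcng1 (0.85), Pcp4 (0.96), Htr2a (1.07), Nefm (1.10) and Fezf2 (1.50), each with an adjusted p of 0.264. Fezf2 had 33.5 ± 11.7 CPM in L4 and 45.6 ± 18.3 CPM in L5-6 of GFP mice, against 16.3 ± 7.29 and 60.1 ± 15.1 CPM in FOXP2 mice, and its levels overlapped between the groups in L5-6 and not in L4. On the other side stood Crabp1 (-3.39), Tac1 (-2.41), Vxn (-0.89) and Ppp1r1b (-0.94). Crabp1, a retinoic acid binding protein, had 7.65, 1.68 and 3.72 CPM in L5-6 of GFP mice 1 to 3 and 0.659 to 0.816 CPM in L5-6 of FOXP2 mice. Its L4 levels were 0.247 to 0.408 and 0.484 to 0.975 CPM, so that the groups overlapped in neither layer. The L4 values of GFP mice were near or at the floor. Fezf2 and Crabp1 were picked by the p of this same difference, so their lack of overlap is no separate support. The share of all genes without overlap between the groups was not counted.

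**Figure D5:**
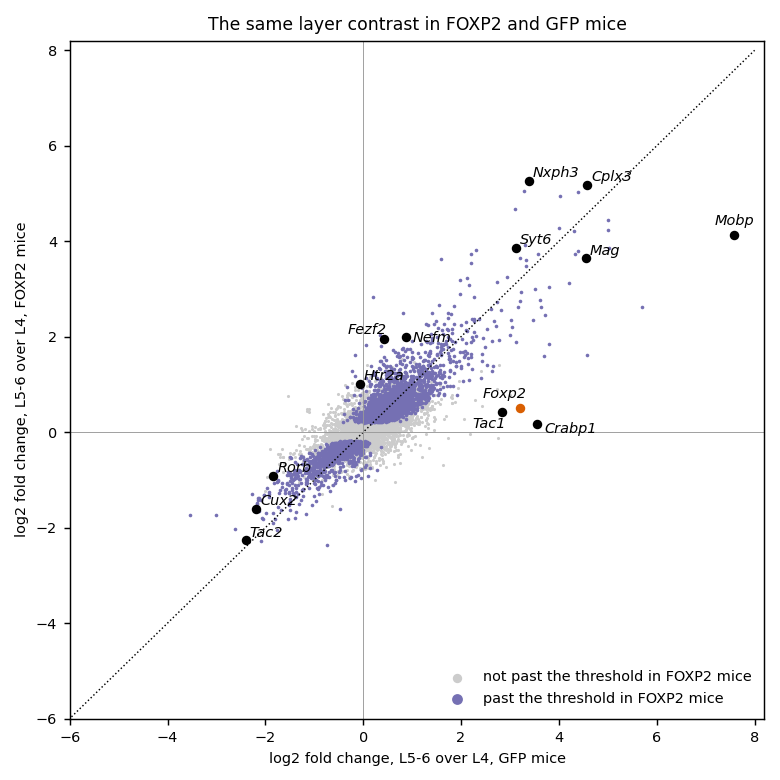
Log2 fold change of L5-6 over L4 in GFP mice (horizontal) and FOXP2 mice (vertical) for 14711 genes tested in both. Purple points passed in FOXP2 mice, grey points did not, black points are named genes, Foxp2 is orange, and the dotted line marks equal change. Most points follow the line (Pearson's r = 0.817), and Foxp2 lies below it at 3.20 and 0.51.

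Forkhead and Sox motifs at the gene starts were counted as a description. The motifs were TGTTTAC (a forkhead core), TATTTAT (a motif of FOXP factors) and ACAAAG (Sox), each on both strands. Windows were matched by symbol for 11099 of the genes tested. Among their 14263 windows, 2.475%, 2.938% and 13.73% held the 3 motifs in this order. Among 389 windows of genes higher in L5-6 by at least 2-fold the shares were 3.342%, 3.342% and 16.45%, and among 80 windows of genes lower by at least 2-fold they were 1.25%, 6.25% and 20%. ACAAAG was in 5 of 14 windows of called myelin genes (35.71%) and in 4 of 12 windows of called layer 6 genes (33.33%). These sets are small, and no test was made of them.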

How the data were processed

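Raw counts for 54446 genes in 18 libraries were deposited by the authors as 1 table, with no normalization. STAR and HTSeq were used with mm10, per the submitters' processing notes. Which versions, gene models and strand setting were used is not given in the sources used here. Genes that overlap on the opposite strand or have near-identical copies are uncertain. Gene positions came from GENCODE M21 (53229 identifiers matched with their version, 54409 without), and start windows from RefSeq.

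L5-6 and L4 were compared over the 6 libraries of the FOXP2 mice by quasi-likelihood F-tests in edgeR 4.0.16 (R 4.3.3, limma 3.58.1), with TMM normalization, filterByExpr (minimum count 10, minimum total 15) and the mouse as a block. A standard error is the absolute log2 fold change over the root of F. The GFP mice were fitted alike, and the difference of the contrasts over 12 libraries. The scripts were tested on simulated data. Levels in CPM used TMM factors over 18 libraries, and log2 ratios within a mouse a pseudo-CPM of 0.1.

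The labels state that layers were pooled for each mouse, so libraries with the same construct and number were paired. As a check, deviations from the layer means over 16970 genes correlated at 0.426, 0.446 and 0.542 within a mouse. Correlations between mice were negative and add nothing to this check. Deviations from a layer mean cancel over its libraries, so positive values within a mouse force negative ones on average between mice. Chi-square per degree of freedom between libraries of a layer was 7.55 to 12.4, so none was counted as a copy.

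Named genes were Mobp, Cplx3 and Foxp2, up to 15 per direction with the largest fold among called genes of one sign in 3 mice and at least 1 CPM, up to 4 of smallest p in each of 36 lists (490 genes), and for the difference the called genes or the 5 of smallest p per direction. Genes outside the rule are marked in the text or stand in a count of 5 or fewer. The comparison, its members and the lists were chosen with earlier results of these data known. Alternatives were DESeq2 1.42.0, RLE factors, other filters, no block, other sets of libraries and each mouse left out. Some genes are not reported here.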

Additional observations from a re-analysis of the deposited data

Results flagged for a closer look

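The change of Foxp2 from L4 to L5-6 differed between FOXP2 and GFP mice by -2.70 on the log2 scale (± 0.21 SE, edgeR interaction, adjusted p = 0.000796), which singled it out as a difference between groups in the same contrast. L4 held 34.8, 33.3 and 64.9 CPM in FOXP2 mice and 5.95, 8.73 and 5.39 CPM in GFP mice, without overlap. L5-6 held 69.4, 39.7 and 77.7 CPM in FOXP2 mice and 61.3, 68.5 and 52.4 CPM in GFP mice, with overlap. The share of all genes without overlap between the groups was not counted. The difference kept its sign and passed with each of the 6 mice left out in turn, and it did not pass without the block on the mouse (-2.71, adjusted p = 0.347). The introduced gene and the mouse's own gene cannot be told apart in these counts.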

How the results depend on the processing

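In the FOXP2 mice 3287 genes passed. The count was 1795 with DESeq2, 1399 without the replicate block, 541 with a 2-fold minimum, and 1196 to 3939 with a mouse left out. It was lowest without huFOXP2 mouse 2 (1196), next without moFoxp2 mouse 1 (2146) and highest without huFOXP2 mouse 1, the mouse with photoreceptor RNA (3939). In the GFP mice 566 passed without the replicate block instead of 3646, and 2802 to 5375 with a mouse left out. For the difference of the contrasts, 288 genes passed without a filter on low counts, 17 with DESeq2 and 0 without the replicate block (309 at an unadjusted p under 0.05, edgeR), and 1 to 3 with a mouse left out. The causes were not tested. Of 152 values of named genes, 127 stayed on their side of the threshold without the block and 25 lost their call, 139 and 13 with DESeq2, and 152 and 0 with RLE factors. No named value past the threshold changed its sign in any setting run. With 3 mice, genes near the floor of 3 counts, such as Col24a1 and Mobp in L4, have uncertain fold changes.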

Other observations

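Retinoic acid genes and genes of dividing cells were not described above. Of 10 retinoic acid genes tested in the FOXP2 mice 4 rose in L5-6 and 0 fell, where 12.7% of all genes were higher and 9.43% lower. With no block 2 rose. The median log2 fold change of the list was 0.49, and it was 0.17 with no filter on low counts. Aldh1a1, a retinaldehyde dehydrogenase, had 6.24, 4.73 and 4.57 CPM in L4 and 25.9, 13.7 and 11.2 CPM in L5-6 (1.66 ± 0.16, edgeR adjusted p = 0.000137). Its layers did not overlap, nor did those of 31.8% of all genes. Rxrg, a retinoid receptor, rose by 1.28 ± 0.25. Of 10 genes of dividing cells 3 rose and 0 fell, where 12.7% of all genes were higher. The count was 1 without moFoxp2 mouse 1, without huFOXP2 mouse 2, with DESeq2 or with no block, and 5 without huFOXP2 mouse 1. Mki67, a protein of cycling cells, went from 20.004, 19.6 and 17.2 CPM to 35.8, 31.8 and 24.8 CPM (0.70 ± 0.09, adjusted p = 0.000784).

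Of 12 genes induced by neuronal activity 4 rose and 0 fell, where 12.7% of all genes were higher and 9.43% lower. Bdnf, a growth factor, had 0.826, 1.81 and 1.18 CPM in L4 and 3.42, 3.13 and 4.45 CPM in L5-6 (1.52 ± 0.28, edgeR adjusted p = 0.00497, and 0.0663 without huFOXP2 mouse 2). Fos, an early-response factor, had 3.03, 2.44 and 6.16 CPM in L4 and 12.1, 3.13 and 7.90 CPM in L5-6, with overlap between the layers (0.91 ± 0.29, adjusted p = 0.0488). Its call was lost without moFoxp2 mouse 1 (0.36, adjusted p = 0.312), without huFOXP2 mouse 2 (adjusted p = 0.0567), with DESeq2 (adjusted p = 0.0777) and with no block (adjusted p = 0.226). The count of this list was 1 higher without huFOXP2 mouse 2 or with no block, and 2 without moFoxp2 mouse 1 or with DESeq2.

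Markers of neighbouring regions and other cells are given as counts, where 12.7% of all genes were higher and 9.43% lower. Of 9 striatal genes 4 rose and 3 fell (2 and 2 without huFOXP2 mouse 2, 2 and 3 with DESeq2). Of 6 thalamic genes 1 rose and 3 fell (1 and 1 without huFOXP2 mouse 2 or with no block). Of 8 hippocampal genes 1 rose and 3 fell, and of 7 genes of the claustrum and endopiriform nucleus 2 rose and 2 fell. Of 5 Cajal-Retzius genes 3 (Reln, Calb2 and Ndnf) fell and 0 rose, and without huFOXP2 mouse 2 the count was 2. Of 4 genes of ependyma and choroid plexus 0 passed, and the count was 2 higher without huFOXP2 mouse 1 and 1 without moFoxp2 mouse 1. The part of neighbouring tissue in the comparison was not tested.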
